A study of Mus musculus with 3 samples.

Results

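The genes of the mRNA decay machinery were read across 3 libraries of cytosolic RNA from mouse macrophages. The set was chosen by gene symbol among genes with a protein-coding transcript, taking the Cnot, Exosc, Dcp, Edc, Lsm, Xrn, Upf, Smg, Pan, Parn, Tob and Dis3 names. It holds 59 of the 55536 genes listed, of which 22028 are protein coding. By role, 16 act in deadenylation, 16 in decapping and 5'-3' decay, 13 belong to the exosome and DIS3 family, 10 act in nonsense-mediated decay and 4 are other Lsm proteins.

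In the cytoplasm an mRNA usually loses its poly(A) tail first, through the PAN2-PAN3 and CCR4-NOT deadenylases. The shortened mRNA is then decapped by DCP2 with its activators and degraded from the 5' end by XRN1, or it is degraded from the 3' end by the RNA exosome. Nonsense-mediated decay is a surveillance pathway in which UPF and SMG proteins recognise a stop codon that lies upstream of an exon junction. In macrophages, deadenylation and decay of cytokine mRNAs limit the inflammatory response.

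The cells were bone marrow-derived macrophages of the C57BL/6J strain, which are primary cells grown from marrow, and all had received 100 ng/ml Lipid A, a ligand of Toll-like receptor 4, for 40 minutes. Their cytosolic fraction was sequenced as ribosomal RNA-depleted total RNA in 3 libraries, numbered as biological replicates 1, 2 and 3. These libraries form 1 group that shares 1 donor record, so whether the cells came from separate animals is not known and the p-values measure only the spread between libraries, which may be technical. Neither untreated cells nor other fractions were analysed here, and no value is a response to Lipid A.

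Expected counts over genes summed to 37861150, 37136495 and 58889061 in replicates 1, 2 and 3. Between any pair of libraries the counts differed beyond sampling noise (chi-square over its degrees of freedom, 58.5 to 145). Levels are TPM, a length-scaled abundance, and the share of TPM in protein-coding genes was 33.2%, 37.0% and 24.1%, smallest in replicate 3. The macrophage markers Lyz2, Csf1r, Adgre1, Cd68, Mertk, Fcgr1, Itgam and Cd14 averaged 25.7 to 5974 TPM. Of the markers of other cells, Ly6g and Cd3e were listed at 0 in every library and Cd79a, Col1a1, Hba-a1, Cpa3 and Mcpt8 averaged at most 0.0433 TPM, while S100a8 and S100a9 averaged 12.7 and 22.9 TPM. As in any bulk sample, fewer cells of a type and less RNA per cell cannot be told apart.

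Decay genes were present at moderate levels. Of the 59, 57 averaged at least 1 TPM, 19 averaged at least 10 TPM and none was in the highest 10% of detected protein-coding genes, which began at 42.1 TPM. Over the 58 detected decay genes, all but Exosc6, the median was 5.86 TPM, beside 6.17 TPM over the 11458 protein-coding genes with a mean of at least 0.1 TPM. Of these 58, 98.3% reached 1 TPM, beside 82.8% of all detected protein-coding genes, and 32.8% reached 10 TPM, beside 37.5%. Behind these levels stood expected counts per gene with a median of 768, 788 and 1125 in replicates 1, 2 and 3. The fewest were those of Lsm5, with 103, 51 and 108, and the most those of Smg1, with 7626, 7496 and 12607.

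**Figure D1:**
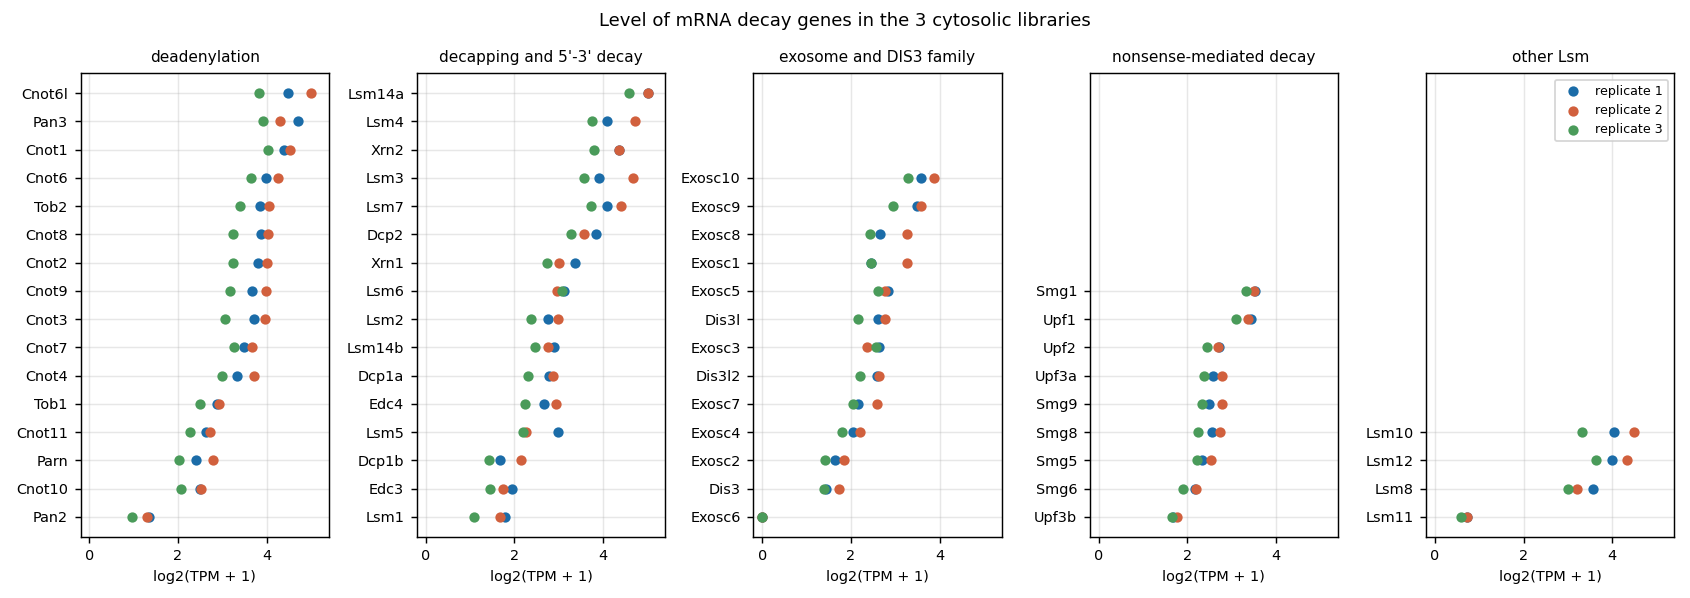
Level of 58 of the 59 decay genes as log2(TPM + 1), with 1 point per library and genes ordered by mean TPM within each role. Deadenylation genes had a median of 11.4 TPM, decapping genes 6.45, detected exosome genes 4.77 and nonsense-mediated decay genes 4.93, and replicate 3 usually lies lowest.

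The deadenylation genes spanned 1.32 to 21.8 TPM, with a median of 11.4 TPM, and 10 of the 16 averaged at least 10 TPM. Cnot6l, which encodes 1 of the paralogous CCR4-type nucleases, was the highest, with 21.4, 31.1 and 13.1 TPM in replicates 1, 2 and 3. Pan3, which encodes the adaptor that brings PAN2 to the poly(A)-binding protein, followed with 25.1, 18.8 and 14.1 TPM. Cnot6l was above Pan3 in 1 of 3 libraries only, so their order did not hold between libraries. At the low end stood Cnot10, a subunit of the N-terminal CCR4-NOT module, with 4.62, 4.74 and 3.17 TPM, and Pan2, the nuclease of the PAN2-PAN3 pair, with 1.54, 1.46 and 0.950 TPM. Pan2 was below every other deadenylation gene in all 3 libraries. Of the 15 neighbours in the order of mean levels, 7 kept their order in every library.

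Levels of partner or paralogous genes were compared in 21 fixed pairs, as the log2 ratio of (TPM + 1) within a library. In limma with every detected protein-coding gene set against the same reference gene, 15 of the 21 pairs differed at an adjusted p of 0.05. The background is high: over the reference genes, 88.8% of all comparisons with a detected protein-coding gene were called, 84.1% to 92.4% for single reference genes. In that fit all genes carry the reference gene's own deviations, so its prior variance is tied to that gene. Unless the shared reference gene is named, the adjusted p-values and 95% intervals printed for pairs are therefore from an alternative. That alternative fitted the 21 together with disjoint pairs of other genes. Its prior variance came from all 5728 pairs fitted, the 21 included. In this alternative 16 of the 21 and 88.8% of all pairs fitted were called. In neither fit was the share of the 21 pairs called above the background. Several pairs share a gene, so the 21 are not independent, and the added 1 TPM draws the ratios of low genes towards 0. It does so more in the second transcript table, where the TPM of decay genes were lower. The intervals cover the spread between libraries, not the choice of pseudocount, scale or quantification.

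**Figure D2:**
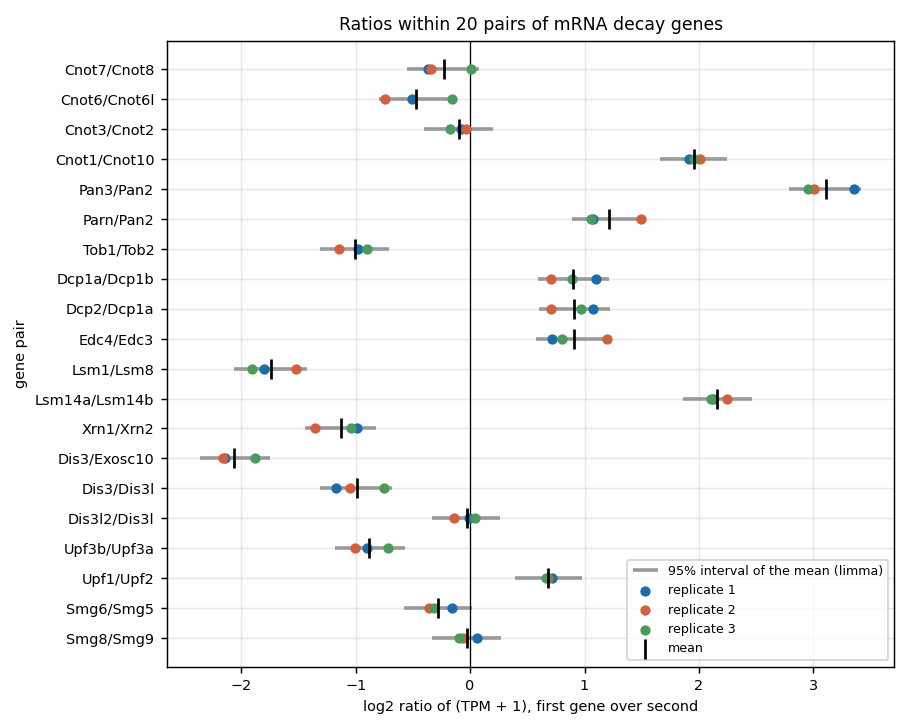
Log2 ratio of (TPM + 1) in 20 of the 21 gene pairs, first gene over second, with 1 point per library, the mean as a black bar and the 95% limma interval of the disjoint-pair fit in grey. The 3 libraries lie on the same side of 0 in 17 of these 20 pairs, and Pan3 over Pan2, at 3.11, is the highest.

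Pan3 stood above Pan2 by 3.36, 3.01 and 2.95 log2 units in replicates 1, 2 and 3, with a mean of 3.11 ± 0.22 (SD, n = 3; interval 2.79 to 3.42; limma adjusted p = 2.36e-10). The mean was 3.76 with a pseudocount of 0.1 and 3.58 with TPM rescaled to protein-coding genes. In the second transcript table it was 2.64, and all of these lay outside this interval. Pan3 had 11.7, 11.0 and 4.79 TPM in that table and Pan2 0.686, 0.648 and 0.298. The added 1 TPM thus lowered the ratio more there, and 2.64 alone does not show a smaller ratio by that quantification. Parn, a separate poly(A)-specific nuclease, averaged 4.43 TPM and also stood above Pan2, by 1.21 ± 0.24 (interval 0.89 to 1.53; limma adjusted p = 4.17e-06). Its ratio to Pan2 was 1.66 with a pseudocount of 0.1 and 0.87 in the second transcript table, both outside its interval. Cnot1, the scaffold of CCR4-NOT, had 20.1, 22.1 and 15.2 TPM and stood above Cnot10 by 1.96 ± 0.05 (interval 1.66 to 2.25; limma adjusted p = 1.31e-08). All 3 libraries placed each of these pairs in the same order.

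The catalytic paralogs of CCR4-NOT lay closer together. Cnot7, a CAF1-type nuclease, had 10.3, 11.8 and 8.54 TPM, and its paralog Cnot8 had 13.6, 15.2 and 8.47 TPM. Their log2 ratio of -0.23 ± 0.21 did not pass the test (interval -0.55 to 0.08; limma adjusted p = 0.143), and replicate 3 had nearly equal levels. With the shared reference gene the ratio passed without replicate 3, at -0.36 (limma adjusted p = 0.0111). It was 0.09 in the second transcript table, so its direction depended on the quantification.

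For the CCR4-type pair, Cnot6 had 14.7, 18.2 and 11.6 TPM, below Cnot6l in every library. The log2 ratio of -0.47 ± 0.29 did not pass with the shared reference gene (limma adjusted p = 0.0666) but did in the disjoint-pair fit (interval -0.80 to -0.14; limma adjusted p = 0.0104). With the shared reference gene it passed without replicate 3, at -0.63 (limma adjusted p = 0.0164), but not without replicate 1, at -0.45 (limma adjusted p = 0.311), or replicate 2, at -0.34 (limma adjusted p = 0.123). With the shared reference gene it also passed with TPM rescaled to protein-coding genes (limma adjusted p = 0.0428) and with the second transcript table's TPM (limma adjusted p = 0.0269). In the NOT module, Cnot3 and Cnot2 averaged 11.4 and 12.2 TPM, a log2 ratio of -0.10 ± 0.07 that did not pass (interval -0.40 to 0.20; limma adjusted p = 0.499). Cnot9, Cnot4 and Cnot11 lay between 4.88 and 11.5 TPM. Tob1 and Tob2, antiproliferative proteins that recruit CCR4-NOT, averaged 5.83 and 12.9 TPM, with Tob1 lower by a log2 ratio of -1.01 ± 0.13 (interval -1.31 to -0.71; limma adjusted p = 1.31e-05).

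Across the 11 Cnot genes, the highest stood 4.63, 6.55 and 4.80 times above the lowest in replicates 1, 2 and 3. Cnot10 was the lowest in every library, while the highest was Cnot6l in replicates 1 and 2 and Cnot1 in replicate 3.

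The decapping and 5'-3' decay genes held the highest decay gene of all, Lsm14a, a scaffold of processing bodies, with 31.5, 31.3 and 22.9 TPM. Its paralog Lsm14b had 6.46, 5.79 and 4.53 TPM, and Lsm14a was higher by 2.16 ± 0.08 on the log2 scale (interval 1.86 to 2.46; limma adjusted p = 4.94e-09). Lsm4, a subunit common to both Lsm rings, had the second highest mean, with 16.0, 25.3 and 12.5 TPM, but was above Xrn2 in 1 library only. Lsm1 had the lowest mean of the 16, with 2.43, 2.19 and 1.14 TPM, although Dcp1b, at 2.20 TPM, was below it in replicate 1. Of the 15 neighbours, 5 kept their order in every library. Lsm1 is the subunit that defines the cytoplasmic Lsm1-7 ring, which binds the 3' end of deadenylated mRNA and promotes decapping. In the nuclear ring Lsm8 takes its place, and Lsm8 had 10.9, 8.17 and 7.05 TPM. Lsm1 was thus below Lsm8 in each library of this cytosolic fraction, by a log2 ratio of -1.74 ± 0.20 (interval -2.06 to -1.43; limma adjusted p = 7.42e-08). These are mRNA levels in the cytosol, where mRNAs of nuclear proteins are translated as well. The ratio of Lsm1 to Lsm8 was -2.17 with a pseudocount of 0.1 and -1.29 in the second transcript table, both outside its interval. Lsm1 had 1.09, 1.13 and 0.474 TPM in that table, so the added 1 TPM weighed more there.

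Within the Lsm1-7 ring the highest subunit stood 6.63, 11.6 and 11.0 times above the lowest in replicates 1, 2 and 3. Lsm1 was the lowest in each, and the highest was Lsm7 in replicate 1 and Lsm4 in replicates 2 and 3. Levels of the short Lsm genes are less certain. Lsm7 shared 65.1% of its 31-base words with other genes, mostly the processed pseudogene Gm10146, and Lsm5 shared 46.3%, mostly with Gm7846. In Lsm5, with 6.93, 3.79 and 3.59 TPM, replicate 1 was the high one, and Gm7846 had 2.49, 0.340 and 0.470 TPM in the same order of libraries. The part of these shared words in the Lsm5 levels was not tested. Lsm2, Lsm3 and Lsm6 averaged 5.61, 16.4 and 7.29 TPM. Of their words, Lsm6 shared 34.8% and Lsm3 24.7% with other genes, while Lsm2 shared none.

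Among the decapping factors, the catalytic subunit gene Dcp2 had 13.3, 10.9 and 8.69 TPM. Its cofactor Dcp1a had 5.84, 6.32 and 3.96 TPM, and the paralog Dcp1b had 2.20, 3.46 and 1.67 TPM. Dcp2 stood above Dcp1a by 0.91 ± 0.19 (interval 0.60 to 1.22; limma adjusted p = 4.38e-05), and Dcp1a above Dcp1b by 0.90 ± 0.19 (interval 0.59 to 1.21; limma adjusted p = 5.07e-05). The decapping scaffold Edc4 averaged 5.25 TPM and stood above the enhancer Edc3, with 2.87, 2.34 and 1.71 TPM, by 0.91 ± 0.26 (interval 0.58 to 1.23; limma adjusted p = 6.85e-05).

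The exonucleases differed too. Xrn1, the cytoplasmic 5'-3' exonuclease, had 9.29, 7.01 and 5.69 TPM, and Xrn2, its mainly nuclear relative, had 19.4, 19.5 and 12.8 TPM. Xrn1 mRNA was lower in each library, by a log2 ratio of -1.13 ± 0.20 (interval -1.44 to -0.82; limma adjusted p = 6.20e-06).

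A large share of the Edc3 level was assigned to a transcript annotated as a target of nonsense-mediated decay. In the second transcript table Edc3-202 held 38.5%, 40.7% and 34.3% of the gene's TPM in replicates 1, 2 and 3. In the first transcript table the share was 36.6%, 31.5% and 33.9%. This transcript lacks exon 3 of the 7 exons of Edc3-201, chr9:57715948-57716267 on the plus strand of mm10, whose 320 bases leave a remainder of 2 when divided by 3, so the reading frame changes. The sequence below shows the effect: it runs from 30 bases before the new junction to the stop codon, in capitals, which ends 10 bases after the junction and lies at chr9:57727193-57727195.
Edc3-202, 30 bases before the junction to the stop: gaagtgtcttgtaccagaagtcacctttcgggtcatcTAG
The stop is 698 bases upstream of the last exon junction of Edc3-202. Words of 31 bases found in no other Edc3 transcript made up 0.659% of Edc3-202, so the division of reads rests on few bases. Clk3, at 13.0 TPM, overlaps Edc3 on the opposite strand, and whether counting used strand is not given in the sources used here.

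The exosome and DIS3 family genes had a median of 4.77 TPM over the 12 detected, and only Exosc10 averaged over 10 TPM. Exosc10, a nuclease of the nuclear exosome, had 11.0, 13.7 and 8.70 TPM, and the core subunit Exosc9 had 10.3, 10.9 and 6.71 TPM. Dis3, the processive nuclease of the nuclear exosome, was the lowest detected member of the family, with 1.71, 2.30 and 1.64 TPM. Dis3 was below Exosc10 in all 3 libraries, by a log2 ratio of -2.06 ± 0.16 (interval -2.36 to -1.75; limma adjusted p = 1.07e-08). That ratio was -2.49 with a pseudocount of 0.1 and -2.37 with TPM rescaled to protein-coding genes. In the second transcript table it was -1.58, and all of these lay outside the interval. Dis3 had 0.845, 1.13 and 0.564 TPM in that table, so the added 1 TPM weighed more there. Dis3 was also below Dis3l, its cytoplasmic counterpart, which had 5.09, 5.85 and 3.45 TPM, by -0.99 ± 0.21 (interval -1.31 to -0.68; limma adjusted p = 2.35e-05). Dis3l2, a nuclease that degrades uridylated RNA without the exosome, averaged 4.62 TPM. Its ratio to Dis3l of -0.03 ± 0.09 did not pass (interval -0.33 to 0.26; limma adjusted p = 0.816), and the libraries did not share 1 direction.

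The core subunits of the exosome are present in equal copies in the complex, yet their mRNAs were not at equal levels. Leaving out Exosc6, the highest stood 4.92, 4.18 and 4.02 times above the lowest in replicates 1, 2 and 3, with Exosc9 highest and Exosc2 lowest in each. Exosc2, which encodes an RNA-binding cap subunit, had 2.10, 2.60 and 1.67 TPM. Exosc8, Exosc1, Exosc5, Exosc3, Exosc7 and Exosc4 averaged between 3.06 and 6.12 TPM. Of the 11 neighbours in this family, 7 kept their order in every library.

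Exosc6 was listed at 0 counts in all 3 libraries, but this value says nothing of its expression. Its gene lies at chr8:111056339-111057664 on the plus strand of mm10, inside Aars, the alanyl-tRNA synthetase gene, at chr8:111033144-111057664 on the same strand. The whole Exosc6 transcript of 1326 bases is contained in the annotated transcript Aars-201 of 5750 bases, and 100% of its 31-base words occur there. Aars was listed at 10.2, 12.3 and 8.72 TPM. Reads of Exosc6 and of the end of Aars-201 cannot be told apart, so no level of Exosc6 can be given. By counting error alone, 3 counts would have been 0.0497, 0.0531 and 0.0246 TPM in replicates 1, 2 and 3.

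Dis3 was the only decay gene whose main transcript, the one with the highest mean TPM, was not annotated as protein coding. Dis3-205, annotated as a target of nonsense-mediated decay, held 43.6%, 79.1% and 49.7% of the gene's TPM in replicates 1, 2 and 3 of the second transcript table. The coding transcript Dis3-201 held 47.2%, 18.9% and 35.0%. Replicate 2 stood apart, and in replicate 1 the coding transcript was the higher one. In the first transcript table Dis3-205 had 0.460, 1.71 and 0.680 TPM and Dis3-201 had 1.08, 0.580 and 0.880 TPM, so only replicate 2 placed Dis3-205 above it there. Dis3-205 lacks exon 13 of the 21 exons of Dis3-201, at chr14:99085874-99085958 on the minus strand of mm10. The sequences below show this exon, whose 85 bases leave a remainder of 1 when divided by 3, and what follows when it is skipped: the stop codon, in capitals, ends 31 bases after the new junction and lies at chr14:99084124-99084126.
Dis3 exon 13, present in Dis3-201: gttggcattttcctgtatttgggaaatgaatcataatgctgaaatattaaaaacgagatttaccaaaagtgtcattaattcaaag
Dis3-205, 30 bases before the junction to the stop: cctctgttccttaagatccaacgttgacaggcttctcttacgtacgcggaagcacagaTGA
The coding sequence is 1701 bases long in Dis3-205, against 2877 in Dis3-201, and its stop is 1007 bases upstream of the last exon junction. Because Dis3-205, at 2971 bases, is shorter than Dis3-201, at 5150, the order depends on the unit: by counts of the same table no decay gene had a main transcript outside the coding class. Only 0.918% of the words of Dis3-205 occur in no other Dis3 transcript, and Pibf1, at 3.33 TPM, overlaps Dis3 on the opposite strand.

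The nonsense-mediated decay genes had a median of 4.93 TPM and the narrowest range of the roles with 10 or more genes, 2.25 to 9.98 TPM. Smg1, the kinase that phosphorylates UPF1, had 10.6, 10.4 and 9.00 TPM, and Upf1, the central helicase, had 9.77, 9.30 and 7.59 TPM. Smg1 was above Upf1 in every library. At the low end were Smg6, the endonuclease, with 3.53, 3.55 and 2.75 TPM, and Upf3b, with 2.19, 2.39 and 2.16 TPM. Upf3b, a bridge to the exon junction complex, was the lowest of the 10 in all 3 libraries.

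Upf1 stood above its partner Upf2, which had 5.56, 5.42 and 4.45 TPM, by 0.68 ± 0.03 (interval 0.39 to 0.98; limma adjusted p = 3.58e-04). Upf3b was below its paralog Upf3a, which had 4.97, 5.83 and 4.20 TPM, by a log2 ratio of -0.88 ± 0.15 (interval -1.18 to -0.57; limma adjusted p = 5.39e-05). All 3 libraries placed both of these pairs in the same order.

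Smg5, an adaptor that binds phosphorylated UPF1, had 4.05, 4.84 and 3.67 TPM. For Smg6 over Smg5 the ratio of -0.28 ± 0.11 did not pass in either fit (interval -0.58 to 0.02; limma adjusted p = 0.0734), although Smg6 was the lower in each library. With the shared reference gene it passed without the filter on low values, at -0.28 (limma adjusted p = 0.0383), with TPM rescaled to protein-coding genes, at -0.33 (limma adjusted p = 0.0477), and in the second transcript table, at -0.32 (limma adjusted p = 0.0479). Smg8 and Smg9, which form a complex that regulates SMG1, averaged 4.75 and 4.86 TPM. Their ratio was -0.03 ± 0.08 (interval -0.33 to 0.27; limma adjusted p = 0.835), and replicate 1 had the opposite sign to the others.

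The other Lsm genes were Lsm8, described above, and 3 genes outside both rings. Lsm10, a subunit of the U7 particle that processes histone mRNA, had 15.3, 21.5 and 8.91 TPM. Lsm12 had 14.9, 19.2 and 11.3 TPM. Lsm11, the partner of Lsm10 in the U7 ring, had 0.640, 0.660 and 0.510 TPM and was the lowest detected decay gene. The Lsm11 values did not overlap those of Lsm10, which belongs to the same ring. This pair was not among the 21 fixed pairs and was not tested. Most gene pairs differ: 88.8% of all pairs in the disjoint-pair fit were called.

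Variation between the libraries was tested with an edgeR goodness-of-fit test, which asks whether a gene varies more than genes of its abundance. None of the 58 decay genes tested was called with Benjamini-Hochberg adjustment, and none had an unadjusted p under 0.05. Over all 12250 genes tested, 191 (1.56%) were called and 774 (6.32%) had an unadjusted p under 0.05. The smallest adjusted p among decay genes was 0.841 in edgeR, that of Lsm10, which had 3.93, 4.25 and 3.55 log2 CPM in the 3 libraries. Replicate 2 was its highest library and replicate 3 its lowest. CPM here is the count scaled to the normalised library size, so the lower coding share of TPM in replicate 3 does not enter.

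The SD of log2 CPM between libraries had a median of 0.125 over the decay genes and 0.161 over all genes tested, and 19 of 58 decay genes (32.8%) lay above that second median. Lsm14a had the smallest SD, 0.00751, with log2 CPM of 6.46, 6.45 and 6.45. Lsm5 had the highest, 0.503, with 1.46, 0.46 and 0.97, and it also had the fewest counts. By role the median SD was 0.119 in deadenylation, 0.117 in decapping, 0.138 in the exosome family, 0.104 in nonsense-mediated decay and 0.197 in the other Lsm genes. Replicate 2 was the library farthest from the others in 25 of the 58 (43.1%), against 42.2% of all genes tested.

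**Figure D3:**
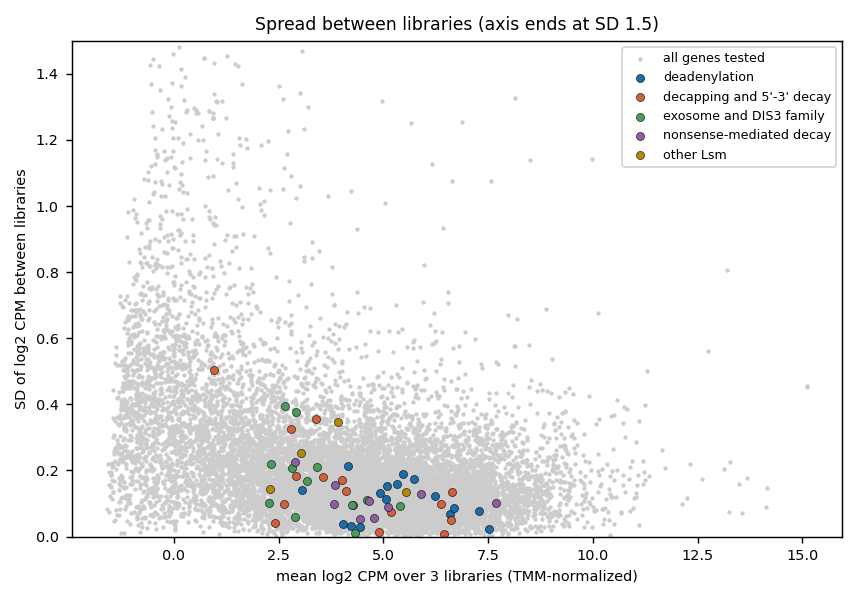
SD of log2 CPM between the 3 libraries against mean log2 CPM, for all genes tested in grey and 57 of the 58 decay genes tested coloured by role; the vertical axis ends at 1.5. Decay genes lie within the cloud, from 0.00751 for Lsm14a to 0.503 for Lsm5, and none was called.

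Levels were also compared between 2 quantifications of the same reads. Gene-table TPM was compared with the summed TPM of the second transcript table, after centring each library on its median over detected protein-coding genes. The log2 difference, gene table minus second transcript table, ran from -0.61 for Lsm11 to 0.34 for Lsm4, with a median of 0.04. These limits depended on the scale: they were -0.32 and 0.21 with a pseudocount of 0.1, -0.37 and 0.16 with both tables rescaled to protein-coding genes, and -0.28 and 0.67 without the filter on low values. With limma's treat test at a fold threshold of 1.5, none of the 58 decay genes was called, none had an unadjusted p under 0.05, and 33 of 11463 protein-coding genes (0.288%) were called, with 913 (7.96%) at an unadjusted p under 0.05. In this comparison the lowest genes, Lsm11 and Pan2 (-0.36), had negative differences, and Lsm1 and Dis3 had -0.34 and -0.30. The added 1 TPM weighs most on low values, and Pan2 had 0.686, 0.648 and 0.298 TPM in the second transcript table. The negative signs of these low genes therefore cannot be read as a disagreement of the 2 quantifications.

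Sequence shared with other genes bears on how far reads can be assigned. Of the 59 main transcripts, 33 shared no 31-base word with another gene, 9 shared over 10% and 2, those of Exosc6 and Lsm7, over 50%. Cnot3 shared 27.4% with the pseudogene Gm9207, which averaged 0.0200 TPM. A gene of at least 0.5 TPM overlapped 14 decay genes, on the opposite strand in 12.

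Part of the level of several decay genes was assigned to transcripts that are themselves annotated as targets of nonsense-mediated decay. Their 382 annotated transcripts include 156 coding, 114 retained-intron, 73 processed and 39 nonsense-mediated decay transcripts. Of the 25 decay genes with a nonsense-mediated decay transcript, 6 (24.0%) had at least 20% of their TPM in that class, against 17.7% of 3418 protein-coding genes with such a transcript. The medians were 3.77% and 3.48%. Besides Dis3 and Edc3, the 6 were Cnot2, Cnot1, Lsm14a and Lsm11.

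Dis3 had 43.6%, 81.1% and 57.1% of its TPM in the class in replicates 1, 2 and 3, and 26.9%, 74.7% and 44.5% in the first transcript table. Cnot2 had 24.7%, 18.8% and 26.8%. Cnot1 had 23.5%, 20.7% and 23.8%. These values were steadier between libraries than those of Dis3. Lsm14a had 17.4%, 29.7% and 17.4%, with replicate 2 high as in Dis3. Lsm11, the lowest detected decay gene, had 25.2%, 22.3% and 25.0%, and 15.4%, 30.3% and 25.5% in the first transcript table. In that table the means of Cnot2, Cnot1 and Lsm14a were lower, at 15.2% ± 4.66 for Cnot2, 16.7% ± 2.39 for Cnot1 and 14.3% ± 7.89 for Lsm14a (SD, n = 3 each), all under the 20% mark.

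**Figure D4:**
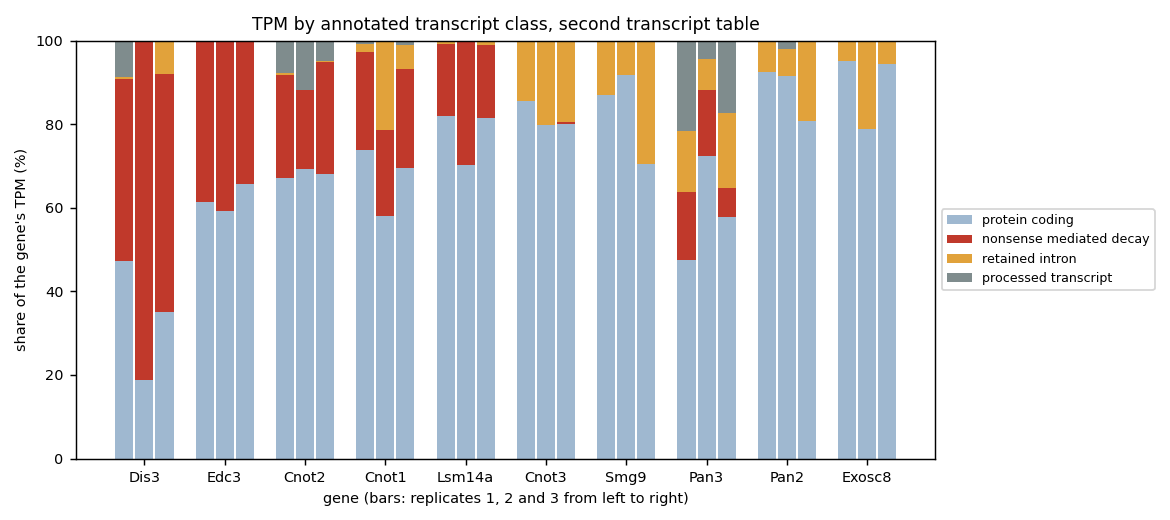
Share of each gene's TPM by annotated transcript class in the second transcript table, for the 5 decay genes with the highest nonsense-mediated decay share and the 5 with the highest retained-intron share among those of at least 1 TPM; the 3 bars of a gene are replicates 1, 2 and 3. Dis3 has 43.6%, 81.1% and 57.1% in nonsense-mediated decay transcripts and Cnot3 14.5%, 20.2% and 19.4% in retained-intron transcripts.

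Retained-intron transcripts took at least 20% of TPM in none of the 43 decay genes that have one, against 12.0% of 6841 protein-coding genes, and the medians were 2.52% and 2.78%. The highest was Cnot3, with 14.5%, 20.2% and 19.4% in replicates 1, 2 and 3. Its first-table share was 27.7%, 30.3% and 30.9%, so Cnot3 lay above the mark in that table. Smg9 had 12.9%, 8.19% and 29.6%, and Pan3 had 14.6%, 7.45% and 18.0%. In both, replicate 3 was the highest library. Pan2 had 7.53%, 6.55% and 19.3%, also highest in replicate 3, whereas Exosc8 had 4.89%, 21.2% and 5.50%, highest in replicate 2. Replicate 3 also held the most of the nuclear RNAs Malat1, with log2 CPM of 10.62, 9.89 and 12.81, and Neat1, with 8.04, 6.86 and 9.51. The part of nuclear RNA in these shares was not tested.

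Processed transcripts took at least 20% in 1 of 29 decay genes (3.45%), against 17.0% of 5308 protein-coding genes. That gene was Cnot7, with 41.4%, 39.8% and 22.8% in the second transcript table but 13.5%, 3.06% and 13.8% in the first. A single transcript held over 50% of the TPM in 52 of the 58 detected decay genes and over 90% in 21. The lowest share of a main transcript was that of Pan3-201, at 24.1%, in a gene with 23 annotated transcripts.

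Decay factors outside the set included some far more abundant mRNAs. Of 47 such genes, 44 reached a mean of 1 TPM, beside 82.8% of all detected protein-coding genes. In the highest 10% lay 5, about the share that this cut sets for all detected protein-coding genes. The 3 highest were Pabpc1, the cytoplasmic poly(A)-binding protein, at 267 TPM, Btg2, a TOB relative, at 201 TPM, and Pnrc1 at 97.0 TPM. Pnrc1 was counted among the decapping partners. By list, the median was 8.63 TPM for 13 poly(A)-binding and deadenylation partners, 14.8 for 7 decapping partners, 6.63 for 14 exosome cofactors and 7.30 for 13 exon junction complex and nonsense-mediated decay partners. Beside 1.56% of all genes tested, 1 of the 47 was called in the spread test. This was Noct, a relative of the CCR4-type nucleases, whose 3 libraries in order of replicate number stood at 4.62, 4.28 and 6.17 log2 CPM (adjusted p = 5.28e-12 in edgeR). Replicate 3 was the high library, as it was for Malat1 and Neat1, and without it the adjusted p in edgeR was 0.999.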

How the data were processed

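Values are those of 3 ribosomal RNA-depleted total RNA libraries of 1 group. The authors deposited for each a gene table and a transcript table of expected counts and TPM derived from a transcriptome alignment, and a second transcript table of estimated counts and TPM derived from the reads directly, on mm10 with GENCODE M21, per the deposited notes. The sources used here name neither the quantification tools nor any use of strand. Symbols, classes, coordinates and sequences came from GENCODE M21 on mm10. Features without a gene were kept out.

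The members, lists and pairs were chosen with earlier results of these data known. Values per library are given for the 2 highest and 2 lowest genes of each role, genes in pairs, called genes and the 5 highest in nonsense-mediated decay or retained-intron share among genes of at least 1 TPM; others were named after their values were seen. The values of 1 gene, and of the pair that holds it, are not reported here, although both enter the counts.

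Expected counts were rounded and fitted in edgeR 4.0.16 (filterByExpr, TMM, intercept only, trended dispersion, goodness-of-fit test). Pair ratios and the 2 quantifications were tested in limma 3.58.1 on log2(TPM + 1), over protein-coding genes of at least 0.1 mean TPM. All p-values are two-sided, except the one-sided goodness-of-fit test. They were adjusted by Benjamini-Hochberg over all genes fitted, or over all gene pairs in the disjoint-pair fit, at 0.05. The pair fit with disjoint gene pairs and the rescaling of both tables to coding genes were added after seeing the data. The spread fit was tested on simulated counts. The limma tests for pairs and quantifications were run on simulated independent differences, with neither a reference gene nor 2 quantifications. The effect of a shared reference gene was therefore not tested by simulation, and the disjoint-pair fit was not simulated. R 4.3.3 and Python 3.11.15 were used. Limits from counts of 0 cover counting error only.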

Additional observations from a re-analysis of the deposited data

How the results depend on the processing

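Of 168 pair ratios recomputed under the alternatives, 157 kept their direction and their side of the threshold, none lost its call, 8 gained one and 3 changed sign, all in pairs that were not called: Cnot7 over Cnot8 was 0.09 in the second transcript table, Dis3l2 over Dis3l ran from -0.07 to 0.02 with a replicate left out, and Smg8 over Smg9 from -0.08 to 0.00. With a pseudocount of 0.1 Pan3 over Pan2 was 3.76, the 1 ratio whose fold moved by over 1.5 times. The number of pairs called ran from 15 to 17, with 15 to 17 when a replicate was left out. No decay gene was called for spread or for quantification under any alternative run, although the counts over all genes ran from 64 to 220 for spread and from 0 to 320 for quantification. The 0 came from the first transcript table, whose summed TPM differed from the gene table by -0.00 to 0.00 in decay genes. That setting could therefore not show a disagreement, and the next lowest count was 4, without replicate 3. An unadjusted p under 0.05 for spread in edgeR was seen for Lsm10 with protein-coding genes only or without replicate 1, and for Exosc1 and Lsm3 without replicate 3. No decay gene entered the highest 10% under any alternative. The number of decay genes with a non-coding main transcript was 1 in both transcript tables and with any replicate of the second table left out, and 0 by counts, where length is not divided out. No comparison between groups, paired or not, was possible because there is 1 group. Low counts limit Lsm5. Shared words limit Exosc6 and Lsm7 most, and less so Lsm5, Lsm6, Cnot3 and Lsm3.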
